A study of Mus musculus with 12 samples.

Results

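The subject is the messenger RNA of 10 secreted cytokines that helper T cells are known to make, *Il21*, *Il4*, *Il2*, *Ifng*, *Il10*, *Il17a*, *Il6*, *Tgfb1*, *Il16* and *Csf1*, in follicular helper T (Tfh) cells. The set is defined by gene name, as signals that T cells release. Of the 24561 genes in the count table, 9 were these cytokines, and *Il17a* was not analysed here. All 9 are described, but 4 of them (*Il21*, *Il4*, *Tgfb1* and *Il16*) held enough counts for the test across all genes, which covered 12719 genes.

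RNA was sequenced from CXCR5hiPD-1hi OT-II Tfh cells sorted from draining lymph nodes on day 3 after NP-OVA immunization, in which a hapten coupled to ovalbumin was given with LPS in alum. OT-II cells carry a transgenic T cell receptor for ovalbumin. They came from C57BL/6 background donors, and a day before immunization they were transferred into CD45.1 Sap-/- recipients, whose own T cells lack the SAP adaptor. The wild-type group received *Cd4-cre* OT-II cells and the BCL6-insufficient group received *Cd4-cre* × *Bcl6* fl/+ OT-II cells, with 3 recipient mice each and 2 technical repeats of about 200 cells per mouse, 12 libraries in all. Both groups thus carried the Cre recombinase, driven by the *Cd4* promoter and so active throughout the T cell lineage, both carried the transgenic receptor, and both sat in a SAP-deficient host. One *Bcl6* allele could be deleted in the BCL6-insufficient cells and none in the wild-type cells. The ages and the number of donor mice were not given in the sources used here, so genotype and donor cannot be told apart.

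Cytokines are the diffusible part of T cell help, next to contact signals such as CD40L. Tfh cells are known above all for IL-21 and IL-4, which drive germinal center B cells to divide, switch class and become plasma cells. IL-2 restrains the Tfh program, IFN-γ and IL-17A belong to other helper lineages, IL-10 and TGF-β dampen responses, and BCL6 is a transcriptional repressor that Tfh cells depend on.

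Libraries labelled BCL6-insufficient held 3343375 to 8315722 counts and those labelled wild-type 5240715 to 7266106. All 8 T cell genes and all 10 Tfh genes of the marker lists passed the expression filter. The *Bcl6* transcript went against the labels: in normalized CPM (counts put on one library size by TMM scaling), BCL6-insufficient mice had 149 ± 2.18 and wild-type mice 62.4 ± 11.5 (SD, n = 3 each), a log2 fold change of 1.25 (SE 0.12, adjusted p = 9.86e-08, edgeR, a quasi-likelihood test with p-values adjusted after Benjamini and Hochberg). Reads were summed over the gene, so transcripts of a deleted and of an intact allele are counted together. Of the Tfh genes, *Bcl6* and *Icos* (0.64) were higher with the BCL6-insufficient label and *Tox2* (-0.80), *Pdcd1* (-0.42), *Cxcr5* (-0.40) and *Tcf7* (-0.27) lower, so both genes of the sort gate were lower, and of the T cell genes *Trac* (0.55) was higher and *Lck* (-0.33), *Cd5* (-0.34) and *Cd4* (-0.34) were lower (log2 fold changes, adjusted p at most 0.0392, edgeR). The number of T cell genes lower was 0 with technical repeat 1 only, without BCL6-insufficient mouse 2 and without wild-type mouse 1 (edgeR), and on log2(TPM + 1) over all genes (limma). Their part in the cytokine values was not tested. Each direction given below rests on the label of the library. The fold changes compare summed counts per mouse, BCL6-insufficient over wild-type, and p-values measure the spread between the 3 mice of each label. Of the 12719 genes, 18.4% had an adjusted p under 0.05, split into 9.29% higher and 9.07% lower for the BCL6-insufficient label, and 31.2% had an unadjusted p under 0.05.

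The 9 cytokines fell into transcripts counted in every library and scarce ones. *Il16*, *Il4*, *Il21* and *Tgfb1* had counts in all 12 libraries, with 24673, 3981, 2296 and 988 counts in all. *Il6* was counted in 11 libraries, *Il2* in 8, *Csf1* in 3, *Ifng* in 2 and *Il10* in 1, and their sums were 43, 89, 11, 10 and 6 counts. The plot of counts by library shows this gap. Among all genes tested, the mean CPM of *Il16* lay at percentile 97.2, that of *Il4* at 77.3, that of *Il21* at 65.3 and that of *Tgfb1* at 44.5. In these bulk samples, fewer cells that make a transcript and less transcript per cell cannot be told apart.

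**Figure D1:**
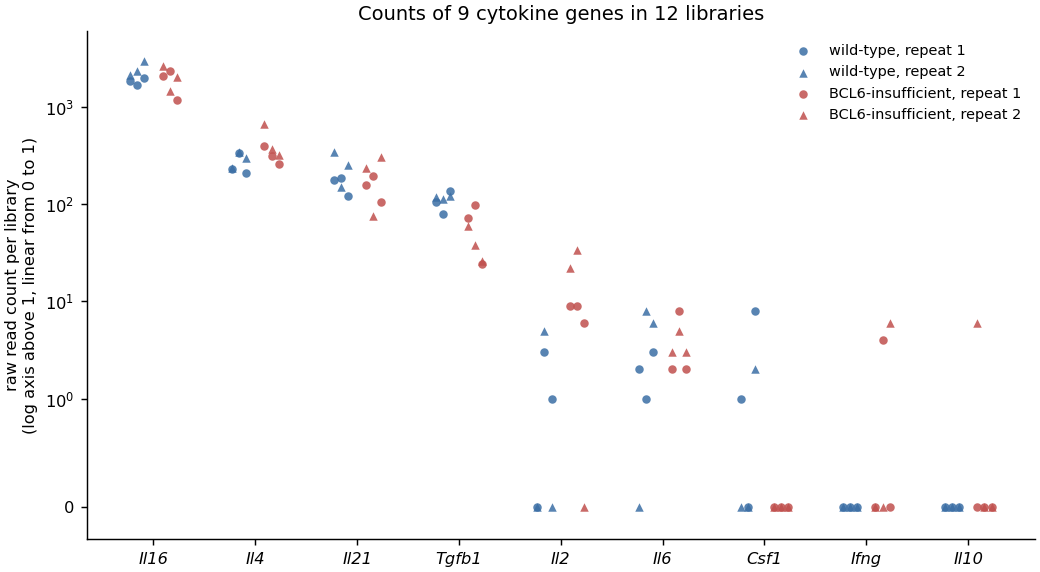
Raw counts of the 9 cytokine genes (vertical axis, log above 1 and linear from 0 to 1) in each of the 12 libraries, with circles for technical repeat 1, triangles for repeat 2 and a color for each label. *Il16*, *Il4*, *Il21* and *Tgfb1* were counted in every library, while *Ifng* and *Il10* had no count in any library labelled wild-type and *Csf1* had none in any library labelled BCL6-insufficient.

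Compared per length of the gene's exons, *Il4* and *Il16* stood above the other cytokines, an order that holds only in part with other lengths. With the wild-type label, *Il16* had 46.3 ± 1.01 CPM per kilobase of summed exons (SD, n = 3 mice) and *Il4* had 38.3 ± 9.61 (SD, n = 3), and the mice of these 2 genes overlapped. *Il21* followed at 6.68 ± 2.08 and *Tgfb1* at 3.75 ± 0.321 (SD, n = 3 each), with no overlap between neighbours from *Il4* to *Tgfb1* on this scale. *Il2*, at 0.229 ± 0.342, and *Il6*, at 0.228 ± 0.134, had mice that overlapped. With the BCL6-insufficient label the order began with *Il4*, at 53.5 ± 8.45, then *Il16*, at 42.6 ± 0.982 (SD, n = 3 each), whose mice did not overlap. *Il21*, at 5.96 ± 1.83, came next. *Il2*, at 1.93 ± 1.37, and *Tgfb1*, at 1.75 ± 0.672 (SD, n = 3 each), had mice that overlapped. The order of *Il4* and *Il16* depends on the length used: per kilobase of the longest transcript, *Il4* stood above *Il16* with the wild-type label too (77.8 against 69.3 CPM per kilobase), while in the deposited TPM values the mean of *Il16* lay above that of *Il4* with both labels (26.1 against 24.9, and 30.5 against 18.7). In TPM, wild-type *Il21*, at 16.9 ± 5.55, was close to *Il4*, at 18.7 ± 4.01 (SD, n = 3 mice each), and their mice overlapped (13.5 to 23.3 and 15.7 to 23.3), so the distance of *Il4* from *Il21* depends on the length too. With the BCL6-insufficient label, *Il21* had 13.3 ± 3.55 TPM and *Il4* 24.9 ± 2.50 (SD, n = 3 each), without overlap, and *Il2* (0.496 to 2.28) lay below *Tgfb1* (2.37 to 4.85).

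**Figure D2:**
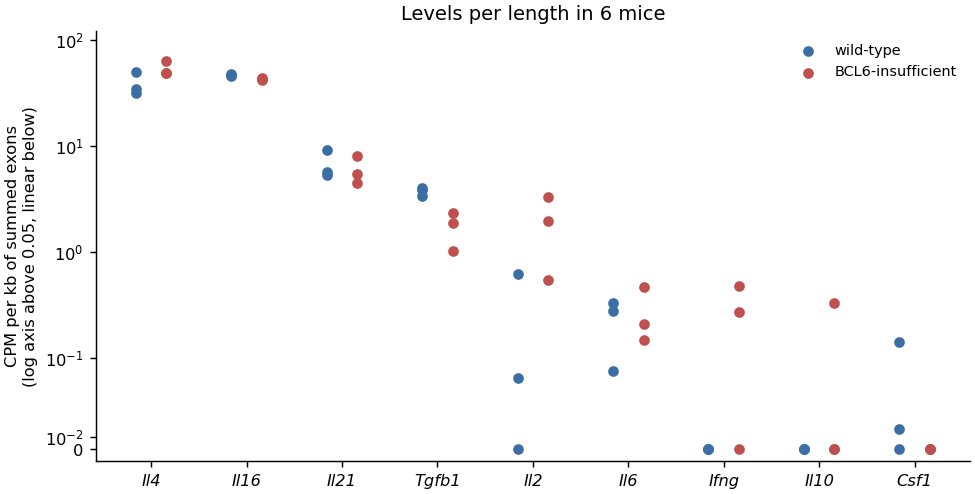
Level of each cytokine gene in CPM per kilobase of summed exon length on an axis that is log above 0.05 and linear below, with 1 point for each of the 3 mice of a label. On this scale *Il4* and *Il16* lead with both labels, and *Il2* lies near *Tgfb1* with the BCL6-insufficient label and near *Il6* with the wild-type label.

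Cytokine genes of T cells are switched on through the antigen receptor, in part by NFAT, which binds the core GGAAA, often together with AP-1. For the 2 cytokines whose difference passed the test and for the IL-21 and IL-2 genes that are classically activated this way, the 250 bases before the gene start are shown from RefSeq (GRCm38.p6), 5′ to 3′ along the gene, with each GGAAA or its reverse complement TTTCC in capitals.

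*Il4*, chr11:53618666-53618915, minus strand: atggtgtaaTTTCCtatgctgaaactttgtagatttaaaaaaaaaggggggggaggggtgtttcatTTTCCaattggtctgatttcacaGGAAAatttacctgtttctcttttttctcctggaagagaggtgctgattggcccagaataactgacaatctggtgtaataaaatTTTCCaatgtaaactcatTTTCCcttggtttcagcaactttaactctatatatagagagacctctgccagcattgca

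*Il21*, chr3:37232637-37232886, minus strand: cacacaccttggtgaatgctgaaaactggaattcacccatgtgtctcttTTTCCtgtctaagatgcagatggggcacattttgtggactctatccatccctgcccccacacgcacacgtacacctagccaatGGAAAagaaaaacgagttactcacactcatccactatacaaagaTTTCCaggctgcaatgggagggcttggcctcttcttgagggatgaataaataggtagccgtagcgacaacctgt

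*Il2*, chr3:37125955-37126204, minus strand: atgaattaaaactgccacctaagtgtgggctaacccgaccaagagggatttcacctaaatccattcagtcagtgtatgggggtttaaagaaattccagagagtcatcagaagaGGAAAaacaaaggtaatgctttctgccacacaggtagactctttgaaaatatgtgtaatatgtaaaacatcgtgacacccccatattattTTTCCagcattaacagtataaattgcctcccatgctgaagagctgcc

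*Tgfb1*, chr7:25686752-25687001, plus strand: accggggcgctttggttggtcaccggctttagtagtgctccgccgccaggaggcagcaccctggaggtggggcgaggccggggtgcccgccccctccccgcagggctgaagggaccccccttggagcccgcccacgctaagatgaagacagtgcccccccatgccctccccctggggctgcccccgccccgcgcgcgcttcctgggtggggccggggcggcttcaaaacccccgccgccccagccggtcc

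The *Il4* window holds 5 matches, *Il21* 3, *Il2* 2 and *Tgfb1* 0. A second RefSeq start of *Il4*, with its window at chr11:53617339-53617588, holds 0. Of 32851 promoter windows of this length, 55.6% hold at least 1 match, with a median of 1. The AP-1 letters TGANTCA, in 6.75% of all windows, and the letters TTCCNNGAA shared by BCL6 and STAT sites, in 4.06%, were found on neither strand of these 4 windows. Of them, the *Il2* window alone holds TATAAA, starting 31 bases before the gene start, as 12.4% of all windows hold these letters. RefSeq windows were found for 9 of the 10 genes, and *Il10* was the one without. Such matches describe letters only, and whether a factor bound there was not measured.

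Of the 4 cytokines tested, *Il4* was higher and *Tgfb1* lower with the BCL6-insufficient label, and *Il21* and *Il16* did not pass the test. That is 2 of 4, against 18.4% of all genes, and with 4 genes the share says little about cytokines as a group. Their median log2 fold change was -0.15, beside 0.011 over all genes tested. For 2 of the 4, *Tgfb1* and *Il16*, the mice of the labels did not overlap, as for 34.4% of all genes tested.

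*Il4* encodes interleukin-4, the cytokine of type 2 and follicular help that directs switching to IgG1 and IgE in the mouse. The gene lies on chromosome 11 from 53602982 to 53618669 (GRCm38, minus strand). Its normalized CPM was 77.6, 59.5 and 59.8 in the mice labelled BCL6-insufficient and 42.5, 60.4 and 38.2 in the mice labelled wild-type. Wild-type mouse 2 thus reached the lower BCL6-insufficient mice, and the labels overlap. By library, the lowest, median and highest *Il4* CPM were 45.2, 74.1 and 82.2 with the BCL6-insufficient label and 37.3, 42.6 and 66.9 with the wild-type label. The means were 65.6 ± 10.4 and 47.1 ± 11.8 CPM (SD, n = 3 mice each), 1.40-fold higher, with a log2 fold change of 0.48 (SE 0.15, 95% interval 0.17 to 0.80, adjusted p = 0.0288, edgeR). The exact two-sided permutation test over the 6 mice gave p = 0.3, where 0.1 is the smallest p it can give. The sign held in 24 of 24 alternative analyses. In 1 of them the 12 libraries were taken as independent samples, so that repeats of a mouse counted as mice. The call held in 14 alternatives, that one included (0.52, adjusted p = 0.0109, edgeR). It was lost with technical repeat 1 only (0.40, adjusted p = 0.258, edgeR), with GC and length trends removed (0.33, adjusted p = 0.161) and without BCL6-insufficient mouse 1 (0.34, adjusted p = 0.190), wild-type mouse 1 (0.41, adjusted p = 0.117) or wild-type mouse 3 (0.35, adjusted p = 0.187). It was also lost in the 3 limma fits on TPM (0.41 to 0.43), with the replicate number and the GC and length trends both taken out (0.34, adjusted p = 0.117, edgeR), and with BCL6-insufficient mouse 2, whose repeat 2 is described with *Il2*, given by its repeat 1 alone (0.38, adjusted p = 0.157, edgeR).

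*Tgfb1* encodes the latent precursor of TGF-β1, which limits T cell activation and directs switching to IgA. It lies on chromosome 7 from 25687002 to 25705077 (plus strand). Its normalized CPM was 9.54, 11.8 and 5.14 in the mice labelled BCL6-insufficient and 20.3, 17.2 and 19.3 in the mice labelled wild-type. Neither the mice nor the 12 libraries overlapped: the lowest, median and highest library had 4.04, 7.80 and 14.02 *Tgfb1* CPM with the BCL6-insufficient label and 15.7, 18.8 and 24.3 with the wild-type label. The means were 8.83 ± 3.39 and 18.9 ± 1.62 CPM (SD, n = 3 mice each), 2.13-fold lower, with a log2 fold change of -1.09 (SE 0.26, 95% interval -1.62 to -0.56, adjusted p = 0.00356, edgeR). The exact two-sided permutation p over mice was 0.1, the smallest that 3 against 3 allows. The difference passed the test in 22 of 24 alternatives and in each of the 6 fits without 1 mouse (log2 fold change -1.35 to -0.83). Of the 22, 1 took the 12 libraries as independent samples, so that repeats of a mouse counted as mice (-1.08, adjusted p = 0.000988, edgeR). The difference did not pass with technical repeat 1 only (-0.78, adjusted p = 0.129, edgeR) or on log2(TPM + 1) over all genes (-1.05, adjusted p = 0.126, limma).

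*Il21* encodes interleukin-21, the signature cytokine of Tfh cells, which sustains germinal center B cells and plasma cell formation. It lies on chromosome 3 from 37222759 to 37232636 (minus strand), next to *Il2* (37120523 to 37125959). Its normalized CPM was 28.4, 23.5 and 42.0 with the BCL6-insufficient label and 47.7, 29.9 and 27.9 with the wild-type label. The mice of the labels overlapped through most of their range. Means were 31.3 ± 9.60 and 35.1 ± 10.9 CPM (SD, n = 3 mice each), with a log2 fold change of -0.17 (SE 0.21, adjusted p = 0.638, edgeR). Its 95% interval, -0.60 to 0.26, bounds the differences that these mice leave possible. The exact permutation p was 0.6. The sign turned when wild-type mouse 1 was left out (0.10), the mouse of highest *Il21* CPM. An antisense gene, Gm12534, overlaps *Il21*, with 288 counts with the BCL6-insufficient label and 374 with the wild-type label against 1068 and 1228 for *Il21*. The strand setting of the counting was not given in the sources used here, so reads where the genes overlap are uncertain.

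The balance of the 2 main Tfh cytokines, as *Il4* counts per *Il21* count, was 2.52 and 2.88 in the repeats of BCL6-insufficient mouse 1, 1.62 and 4.83 in mouse 2 and 2.49 and 1.06 in mouse 3. It was 1.27 and 0.690, 1.81 and 2.29, and 1.74 and 1.20 in wild-type mice 1, 2 and 3. The widest gap lay between the repeats of BCL6-insufficient mouse 2, and the labels overlapped.

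*Il16* encodes pro-interleukin-16, a precursor whose secreted end attracts CD4+ cells. It lies on chromosome 7 from 83642825 to 83745726 (minus strand). Its normalized CPM was 344, 333 and 329 with the BCL6-insufficient label and 362, 358 and 373 with the wild-type label. The mice did not overlap, but the libraries did, at 312 to 369 and 334 to 389 CPM. The means were 335 ± 7.72 and 364 ± 7.91 CPM (SD, n = 3 mice each), with a log2 fold change of -0.12 (SE 0.09, 95% interval -0.30 to 0.06, adjusted p = 0.368, edgeR) and an exact permutation p of 0.1, the smallest possible. *Il16* was called in none of the 24 alternatives and was 0.05 with technical repeat 1 only. *Stard5*, a lipid transfer gene on the other strand that overlaps *Il16*, had 125 ± 11.8 and 198 ± 10.8 CPM (SD, n = 3 each; log2 fold change -0.66, adjusted p = 4.20e-05, edgeR). Without strand, reads shared by the pair cannot be assigned, so the *Il16* values carry that uncertainty.

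**Figure D3:**
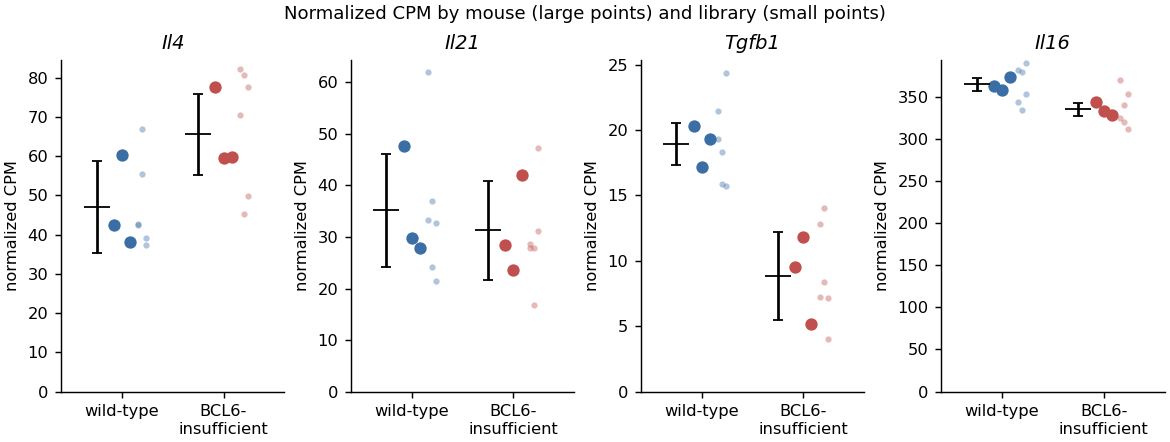
Normalized CPM of *Il4*, *Tgfb1*, *Il21* and *Il16* (vertical axis, from 0), with the 3 mice of each label as large points, their 6 libraries as small points, and the mean and SD of the mice as a bar with whiskers. By mouse, the labels are apart for *Tgfb1* (5.14 to 11.8 against 17.2 to 20.3) and for *Il16* (329 to 344 against 358 to 373), and overlap for *Il4* and *Il21*.

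The repeats of a mouse, 2 sorts of about 200 cells, differed most for *Tgfb1* and *Il21* by the median ratio, and for *Il21* and *Il4* by the largest. The median size of the log2 ratio of repeat 2 to repeat 1 over the 6 mice was 0.60 for *Il21*, 0.24 for *Il4*, 0.66 for *Tgfb1* and 0.16 for *Il16*, against 0.34 over all genes tested. The largest were 0.89, 0.83, 0.78 and 0.19 (log2 scale, 0.5 CPM added). *Tgfb1* was lower in repeat 2 in each of the 3 mice labelled BCL6-insufficient, as were 12.8% of the genes tested. *Il16* was lower in repeat 2 in these 3 mice (mean log2 ratio -0.15) and higher in repeat 2 in the 3 mice labelled wild-type (0.16), and 4.28% of the genes tested had opposite signs in all mice of the labels in this way.

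**Figure D4:**
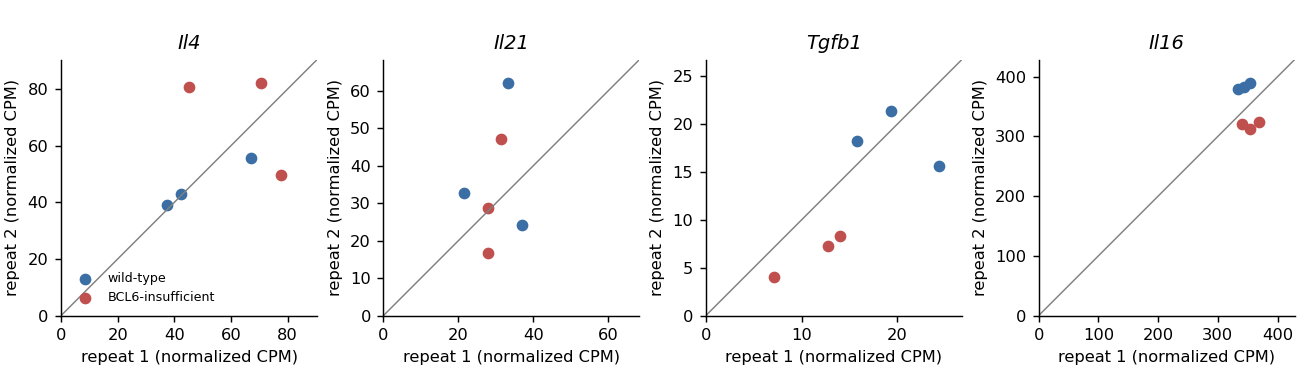
Normalized CPM of the tested cytokine genes in technical repeat 1 (horizontal axis) and repeat 2 (vertical axis) of each mouse, with the diagonal where both are equal. The *Tgfb1* points of the 3 mice labelled BCL6-insufficient lie below the diagonal, the *Il16* points of the labels lie on opposite sides of it, and the *Il4* and *Il21* points lie on both sides with both labels.

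*Il2*, the T cell growth factor that opposes BCL6 in early Tfh cells, was the best counted of the scarce cytokines. It had 9 and 22 counts in the repeats of BCL6-insufficient mouse 1, 9 and 34 in mouse 2 and 6 and 0 in mouse 3, and 0 and 0, 3 and 5, and 1 and 0 in wild-type mice 1, 2 and 3. It was thus counted in 5 of 6 libraries against 3 of 6. By mouse, *Il2* was 2.26, 3.76 and 0.617 CPM with the BCL6-insufficient label and 0, 0.711 and 0.0751 CPM with the wild-type label, and mouse 3 of the one lay below mouse 2 of the other. Over the libraries of a label, 80 and 9 counts gave 2.25 CPM (exact Poisson 95% interval 1.78 to 2.80) and 0.258 CPM (0.118 to 0.489), a ratio of 8.72. These intervals cover counting error only, since the reads carry no molecular identifiers and copies of a molecule are counted again. The exact permutation p over mice was 0.2.

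*Il2* did not pass the expression filter. Without the filter, its log2 fold change was 3.04 (SE 0.85, adjusted p = 0.00615, edgeR). In 4 of the 6 fits that left out 1 mouse, *Il2* passed the filter, but through the BCL6-insufficient mice in which it is high, so the log2 fold changes there, 2.51 to 5.44, are a description only. Its adjusted p was 0.264 on log2(TPM + 1) over all genes (limma). The repeat with 34 counts, BCL6-insufficient mouse 2 repeat 2, held 38.2% of all *Il2* counts, and without it the sums were 46 and 9. With that mouse represented by its repeat 1 alone, the log2 fold change was 2.37 with an adjusted p of 0.176 (edgeR, no filter). The same library held 35.2 CPM of the neutrophil gene *S100a8*, which was at 0 in all other libraries, and the highest *Cd74*, at 94.7 CPM, and *Cd79a*, at 19.8 CPM. The part of other cells in its *Il2* counts was not tested.

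The remaining cytokines lay at the limit of detection. *Ifng*, the type 1 helper cytokine, had 4 counts in one library of BCL6-insufficient mouse 2 and 6 in one of mouse 3, and 0 in all 6 libraries labelled wild-type. Set against the 3 counts over the label that a count of 0 allows (0.0859 CPM), *Ifng* was at least 3.27-fold higher with the BCL6-insufficient label. *Il10*, an inhibitory cytokine, had 6 counts in a single library, BCL6-insufficient mouse 1 repeat 2, and was at least 1.96-fold higher on the same floor. *Csf1*, the macrophage growth factor, had 11 counts with the wild-type label, 8 of them in mouse 3 repeat 1, and 0 with the BCL6-insufficient label, at least 3.74-fold higher with the wild-type label (floor 0.0843 CPM). These bounds take the counts of the higher label as exact, and each rests on 1 to 3 libraries. Without the library of most counts, *Ifng* was at least 1.62-fold higher on 4 counts, *Csf1* kept 3 counts, no more than the floor, and *Il10* none. *Il6*, an inducer of *Il21* and of the Tfh program, had 5, 13 and 5 counts in the mice labelled BCL6-insufficient and 2, 9 and 9 in those labelled wild-type, or 0.647 CPM (0.410 to 0.970) and 0.573 CPM (0.350 to 0.885). In the fit without a filter the adjusted p was 0.204 for *Ifng*, 0.336 for *Il10*, 0.216 for *Csf1* and 0.918 for *Il6* (edgeR). The exact permutation p over mice was 0.4, 1.0, 0.4 and 0.7.

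Markers of other cells were examined in 5 lists. One gene was called in each of 4 of them (of 4 myeloid, 6 B cell, 3 cytotoxic and NK cell and 5 regulatory T cell genes tested), beside 18.4% of all genes. Of 14 myeloid genes, 11 were measured and 4 tested, with a median log2 fold change of 0.93, and their summed level was 21.9 to 41.7 CPM in the mice labelled BCL6-insufficient and 10.1 to 14.5 CPM in those labelled wild-type. *Ly6c2* was higher (1.09, adjusted p = 0.0454, edgeR). *Lyz2* had a log2 fold change of 2.64 (adjusted p = 0.0640, edgeR) and *Csf1r* of 0.77 (adjusted p = 0.0702, edgeR). *Cd68* went the other way (-0.21, adjusted p = 0.827, edgeR), and *Cd14* was at 0 in every library. *Lyz2* had 28.5 CPM in BCL6-insufficient mouse 1 repeat 1. The next highest library of this label, mouse 1 repeat 2, had 8.10 CPM. DESeq2 called 2 of the 4 myeloid genes higher, and edgeR called 0 with technical repeat 1 only, with the replicate block, without BCL6-insufficient mouse 1, without wild-type mouse 2 or 3, and with BCL6-insufficient mouse 2 given by its repeat 1 alone, as did limma in the TPM fits, while the median stayed above 0 in each alternative. Of 10 B cell genes, 6 were tested and 1, *Ighm*, was lower (533 against 655 CPM), and as it holds most of the sum, the sums were 511 to 700 and 599 to 837 CPM. The other 5 had log2 fold changes above 0, from 0.39 for *Cd74* to 0.99 for *Cd79b*, none past the test, and the median of the 6 was 0.57. This direction rests on single mice: the median over the B cell genes tested was -0.68 without BCL6-insufficient mouse 2, -0.07 without wild-type mouse 2, and 1.99, with 3 genes higher, without wild-type mouse 3. Of 13 stromal and endothelial genes, 5 were measured and 1, *Pecam1*, was tested, *Dcn* and *Cdh5* were at 0, and the sums were 56.5 to 74.6 and 73.2 to 87.4 CPM. Of 9 cytotoxic and NK cell genes, 3 were tested and 1, *Nkg7*, was higher (5.42 against 1.83 CPM), while the sums, 29.0 to 36.0 and 30.3 to 42.0 CPM, were mostly *Cd8b1* (25.7 against 34.1 CPM). The median of the 3 was 0.97, and the number higher was 0 with either technical repeat alone, without BCL6-insufficient mouse 2 or 3, without wild-type mouse 1 or 2, with BCL6-insufficient mouse 2 or wild-type mouse 3 given by its repeat 1 alone (edgeR), and in the TPM fits (limma). *Nkg7*, counted in 11 libraries, was not in the fit that asked for at least 10 counts in every library. Of 6 regulatory T cell genes, 5 were tested and 1, *Ikzf2*, was higher (170 against 111 CPM) and made up most of the sums of 262 to 299 and 173 to 241 CPM. The defining gene *Foxp3* had 3.59 against 5.38 CPM, a log2 fold change of -0.58 (adjusted p = 0.307, edgeR), and its mice did not overlap. Their part in the values of *Il4*, *Tgfb1*, *Il2*, *Ifng*, *Il10* and *Csf1*, which those cell types can also make, was not tested.

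Among receptors of the cytokines, those for IL-21, IL-6, TGF-β and IL-16 held a gene that was lower with the BCL6-insufficient label. Of 19 receptor genes, 18 were tested, with 0 higher and 4 lower by edgeR and 1 higher and 4 lower by DESeq2, where edgeR had 9.29% of all genes higher and 9.07% lower. An unadjusted p under 0.05 was found for 5 of the 18, beside 31.2% of all genes, and their median log2 fold change was 0.05. *Il21r*, the IL-21 receptor that T and B cells carry, was 50.9 ± 9.47 CPM against 85.6 ± 9.17 (SD, n = 3 mice each), with a log2 fold change of -0.75 (SE 0.14, adjusted p = 0.000321, edgeR). The IL-6 receptor *Il6ra* was 102 ± 8.56 against 133 ± 10.02 CPM (-0.38, adjusted p = 0.0136), and the TGF-β receptor *Tgfbr2* was 50.4 ± 9.36 against 66.5 ± 6.33 CPM (-0.40, adjusted p = 0.0467). *Cd4*, which binds IL-16, was the fourth (-0.34, adjusted p = 0.0392), and its mice overlapped. Shared chains such as *Il2rg* (0.16, adjusted p = 0.300) and *Il6st* (0.11, adjusted p = 0.638) did not pass the test. The number lower was 1 with technical repeat 1 only, without BCL6-insufficient mouse 3, without wild-type mouse 1 and on log2(TPM + 1) or log2(TPM + 0.1), 0 on log2(TPM + 1) over all genes, and 2 with upper-quartile scaling. *Tgfbr2* and *Cd4* were each called in 12 of 24 alternatives, *Il6ra* in 18 and *Il21r* in 22.

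Transcription factors that act on these cytokine genes moved in both directions. Of 25 such genes, 21 were tested, 5 higher and 3 lower, beside 9.29% and 9.07% of all genes. An unadjusted p under 0.05 was found for 10 of them, beside 31.2% of all genes, with a median log2 fold change of 0.08. *Maf*, an activator of *Il4* and *Il21*, was 74.4 ± 6.40 CPM with the BCL6-insufficient label and 44.7 ± 10.4 with the wild-type label (SD, n = 3 mice each; log2 fold change 0.74, SE 0.14, adjusted p = 0.000680, edgeR). *Irf4*, which pairs with BATF at *Il21* and *Il4*, was 54.5 ± 17.6 against 33.8 ± 5.64 CPM (0.70, adjusted p = 0.00767). Lower were *Ikzf3*, the lymphoid factor Aiolos, at 33.1 ± 1.23 against 54.4 ± 8.29 CPM (-0.72, adjusted p = 0.000874), and *Nfatc1*, at 410.9 ± 44.7 against 534 ± 51.5 CPM (-0.38, adjusted p = 0.00786). The lineage factors *Gata3* (0.03, adjusted p = 0.884) and *Tbx21* (-0.29, adjusted p = 0.638) did not pass the test, and *Eomes* was at 0 in every library. On log2(TPM + 1), 0 were higher and 3 lower (limma), and with technical repeat 2 only 2 were higher and 0 lower (edgeR). The number higher was 1 without BCL6-insufficient mouse 1, where *Irf4* had a log2 fold change of 0.40 (adjusted p = 0.135, edgeR), and 2 without wild-type mouse 1 or 3.

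Among other secreted factors and the proteins that process the cytokines, no gene passed the test in the edgeR analysis described. Over all genes, 18.4% had an adjusted p and 31.2% an unadjusted p under 0.05. With so few genes tested here, a count of 0 says little about these groups. Of 38 further interleukins and growth factors, 25 were measured and 6 tested, *Ebi3*, *Tgfb3*, *Lif*, *Osm*, *Clcf1* and *Mif*, with 0 higher and 0 lower by edgeR, 0 at an unadjusted p under 0.05, and 0 by DESeq2. With the replicate block and GC and length trends removed, 1 of the 6 was called higher. The level of *Tgfb3*, a relative of *Tgfb1*, was 20.6 ± 1.46 CPM against 23.0 ± 2.77 (SD, n = 3 each; log2 fold change -0.16, SE 0.19). *Il13*, a neighbour of *Il4* in the type 2 cluster, was at 0 in every library, as were *Il3* and *Il17f*, and *Il5* had 1 count. Of 14 genes for latency and processing, 6 were tested, again with 0 higher, 0 lower, 0 at an unadjusted p under 0.05 and 0 by DESeq2. Among them was *Furin*, the protease that cleaves the TGF-β1 precursor (log2 fold change -0.22, adjusted p = 0.638, edgeR). Of 11 chemokines, *Cxcl16* alone was tested and did not pass by edgeR or DESeq2 (log2 fold change -0.30, adjusted p = 0.827, edgeR), and *Ccl3*, *Ccl4* and *Xcl1* were at 0 in every library.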

How the data were processed

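RNA-seq of 12 libraries of sorted Tfh cells, made by an adapted SMART-Seq2, was compared between 2 labels. The authors aligned reads to GRCm38 (mm10) with HISAT2 2.2.1, counted them per gene with HTSeq, and deposited raw counts for 24561 genes and TPM values for 24530. The annotation, the strand setting and the lengths behind the TPM were not given in the sources used here. The members and gene lists were chosen with earlier results of these data known. Counts of the 2 technical repeats were summed per mouse and tested with edgeR 4.0.16 in R 4.3.3 (TMM, filterByExpr, robust quasi-likelihood test, Benjamini-Hochberg adjustment over 12719 genes). Alternatives used DESeq2 1.42.0, limma 3.58.1 on log2(TPM + 1) or log2(TPM + 0.1), other filters and scalings, mgcv 1.9.3 for GC and length trends, each repeat alone, and leaving out each mouse. A further alternative took the 12 libraries as independent samples, and its p-values do not measure the spread between mice. Scripts were tested on simulated data. All 10 cytokines were named, and from each other list at most 4 genes with an adjusted p under 0.05 whose mice do not overlap, beside marker genes that bear on a result, overlapping genes, and examples chosen after their values were seen (*Cd4*, *Il2rg*, *Il6st*, *Gata3*, *Tbx21*, *Tgfb3*, *Furin*, *Cxcl16* and the genes at or near 0; in the closing section *Runx3* and *Jund*). Every tested gene of the further interleukins and growth factors was also named. Gene positions and exon lengths came from a GRCm38 annotation. Depth was 3343375 to 8315722 counts per library, and a count of 0 allows up to 3 counts. No column was left unmapped.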

Additional observations from a re-analysis of the deposited data

Results flagged for a closer look

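Among 36 groups of 6 libraries (18 genes, each in both labels: the 4 cytokines tested, *Bcl6*, *Stard5*, and the 4 receptor and 8 regulator genes called), 3 held a library far from the other 5. All 3 were repeats of wild-type mouse 2: repeat 1 had 100.01 CPM of *Bcl6* (median of the others 56.5), and repeat 2 had 51.4 CPM of *Irf4* (27.2) and 51.7 CPM of *Runx3* (33.3). A chance number of about 1.8 would need 6 independent libraries a group. These were repeats of 3 mice, and the receptor and regulator genes were picked by their call in these data. Whether 3 is more than chance gives was thus not tested.

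In 2 of the 18 genes, *Il16* and *Jund*, repeat 2 differed from repeat 1 in one direction in the 3 mice labelled BCL6-insufficient and in the other direction in the 3 labelled wild-type. The mean log2 ratio of repeat 2 to repeat 1 of *Il16* was -0.15 and 0.16, a difference of -0.31. That of *Jund* was 0.91 and -0.50, a difference of 1.41. Of all genes tested, 4.28% had such opposite signs, and neither difference was tested.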

How the results depend on the processing

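P-values measure 3 mice a label, except in the alternative that took the 12 libraries as independent samples. The alternatives that give a mouse by 1 repeat alone were chosen after seeing the data. The cause of each change below was not tested.

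Of the 10 cytokines, 4 were tested and 2 called, beside 18.4% of all genes tested. The number called was 3 of 9 without the filter, *Il2* among them. It was 0 with technical repeat 1 only and in the limma fit of all genes on log2(TPM + 1). The count was 1 with GC and length trends removed, the replicate block with those trends removed, log2(TPM + 0.1), log2(TPM + 1) and BCL6-insufficient mouse 2 by repeat 1 alone, and 1 to 3 with a mouse left out, where the count of 3 includes *Il2*, which entered those fits through the mice in which it is high. The sign turned for *Il16* (0.050) and *Jund* (-0.42) with technical repeat 1 only and for *Il21* without wild-type replicate 1 (leaving out each mouse in turn gave -0.44 to 0.10). Over all genes, 2334 were called, 1181 higher and 1153 lower. The count was 1086 with repeat 1 only, 1500 with repeat 2 only, 1260 with log2(TPM + 0.1) (374 higher, 886 lower), 1305 with log2(TPM + 1) (390 and 915), 70 when the latter took in all genes, and 1468 (without wild-type replicate 3) to 2032 with a mouse left out. Upper-quartile scaling gave 1357 higher and 980 lower. Log2(TPM + 0.1) moved the median log2 fold change over the table to -0.11.

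Replicate numbers are shared by the labels but did not pair the mice: same-numbered mice had correlations of their deviations of 0.085, -0.028 and 0.025, and 1 of 3 numbers correlated best with its own. The replicate block gave 2570 genes, and 2 cytokines, *Il4* (0.50, adjusted p = 0.0215, edgeR) and *Tgfb1* (-1.15, adjusted p = 0.00278, edgeR).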
